A study of Petunia x hybrida with 7 samples.

Results

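The regions described here are stretches of the petunia genome that held a peak of PhDEF binding in wico petals and in neither wild-type nor star petals. The protein's binding had been profiled by ChIP-seq, in which chromatin is precipitated with an antibody and sequenced, in petals of Petunia x hybrida cultivar R27, tube and limb together, at flower stage 8. Each of the 3 genotypes had 2 immunoprecipitated libraries, merged by the authors into 1 list of reproducible peaks per genotype, and 1 input library came from wild-type petals. In the wild type, PhDEF is present in epidermis and mesophyll alike. Petals of wico are chimeric, with PhDEF intact in the epidermis and phdef mutant in the mesophyll, whereas in star petals the mutant layer is the epidermis. All 3 genotypes share the same cultivar, growth conditions, double cross-linking and antibody. The peaks of the 3 lists on the scaffolds HiC_scaffold_1 to HiC_scaffold_7, the 7 long ones of the assembly, were pooled, and peaks sharing at least 1 bp were merged into regions. Of the 5073 regions obtained, 1561 held wico peaks only, a share of 30.8% (exact Clopper-Pearson 95% interval 29.5 to 32.1%, which covers counting error only, as do all such intervals here). Each of the 1561 regions held a single wico peak, so region and peak are the same interval.

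PhDEF is the petunia member of the DEFICIENS family of MADS-domain transcription factors. These proteins act as heterodimers with a partner of the GLOBOSA family and, with other MADS-domain proteins, specify petal identity. MADS-domain dimers bind short AT-rich sequence elements called CArG boxes. The petal has an epidermis on each face, where pigment is made, and a mesophyll between them. In chimeric petals such as wico and star the protein is lacking from some layers, so the chromatin of the whole petal mixes cells with and without it. Fewer cells with PhDEF at a site and less PhDEF bound per cell cannot be told apart in such material.

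The regions were chosen by presence in the wico list and absence from the other lists, each cut at a reproducibility threshold, and so by the measured values themselves. Signal, reproducibility and width come from the same peaks, and they are given as a description with no test. The wico-only regions have no values in the wild-type and star lists, so their signal was not tested between genotypes, and a site just under the threshold looks the same as an unbound site. Without read counts in the lists, depth is unknown.

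The wico-only regions made up 42.3% of the 3692 wico peaks on the long scaffolds (40.7 to 43.9%). The corresponding share was 23.4% in the wild-type list (629 of 2687 peaks, 21.8 to 25.1%) and 34.8% in the star list (620 of 1781 peaks, 32.6 to 37.1%). The wico list is the longest, so these shares do not compare the genotypes at like list length. With the wico list at the length of the wild-type list, its share was 30.1%. With all lists at the length of the shortest, it was 25.7%. Shares of the other lists at like length are not given here. Together the wico-only regions covered 613.1 kb, or 38.9% of the 1577.4 kb under wico peaks on these scaffolds. Of the remaining wico peaks, most lay in the 1105 regions shared with the wild type or the 814 regions found in all lists, and 208 regions were shared with star alone.

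Few regions lay near the limit of the rule. The wico-only region closest to a peak of another list lay at positions 2985920 to 2986324 of HiC_scaffold_3, 49 bp from a wild-type peak at 2986374 to 2986787. It was followed by 53836372 to 53836817 of HiC_scaffold_2, 63 bp from a wild-type peak, and by 32608910 to 32609346 of HiC_scaffold_4, 110 bp from a wild-type peak that itself overlapped another wico peak. Their summed signals were 7.33, 8.13 and 12.1 in that order. On the other side of the rule, the smallest overlap was 127 bp, between the wico peak at 91305016 to 91305166 of HiC_scaffold_1 with a summed signal of 8.30 and a wild-type peak starting at the same base. The next smallest were 147 bp, with a star peak starting at the same base, at 33725697 to 33725843 of HiC_scaffold_3 (summed signal 18.7), and 157 bp, with a wild-type peak, at 62597954 to 62598267 of HiC_scaffold_4 (7.51). No wico peak overlapped another list by under 100 bp, and the median of the largest overlap of a shared wico peak was 372 bp.

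The wico-only regions lay low in the wico list but not solely at its end. The summed signal of a peak is the sum of the peak caller's signal values in the 2 replicates, and it has no stated unit. Over the 1561 regions it ran from 6.79 to 24.6 with a median of 8.74 and quartiles of 7.71 and 10.2. Shared wico peaks ran from 6.88 to 50.6 with a median of 12.1. Expressed as a percentile of the whole wico list, in which 100 is the strongest peak, the median was 29.0 for wico-only regions (quartiles 12.9 and 49.3) and 67.3 for shared wico peaks. Wico peaks shared with star alone stood between, at 45.6, followed by those shared with the wild type at 62.3 and those in all lists at 80.3. Star-only peaks had a like place in their own list, with a median percentile of 29.3 (25.9 to 32.3). Wild-type-only peaks stood lower in theirs, at 19.6 (17.0 to 21.5), where the interval for wico-only peaks was 27.2 to 30.9.

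When the wico list was cut into 10 groups by percentile, the wico-only share was lower in each stronger group. It was 88.1% at percentiles 0 to 10 (312 of 354 peaks, 84.3 to 91.3%), 43.0% at 40 to 50 (165 of 384) and 3.88% at 90 to 100 (14 of 361, 2.14 to 6.42%). The upper 50% of the list still held 378 wico-only regions, 24.2% of them, where 50.4% of all wico peaks on the long scaffolds lay.

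**Figure D1:**
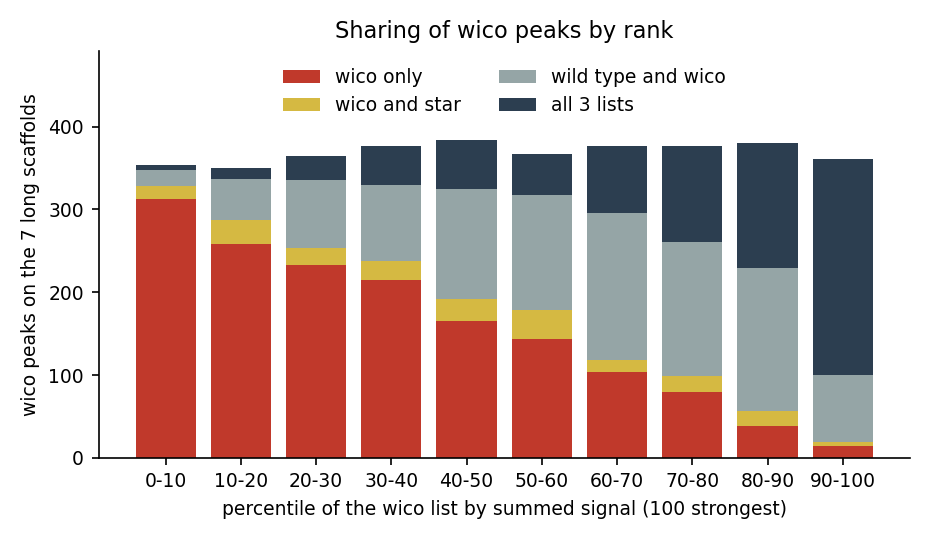
Number of wico peaks on the 7 long scaffolds (y axis) in 10 percentile groups of the wico list by summed signal (x axis, 100 strongest), stacked by the lists that share the region. The wico-only part shrinks from 312 peaks in the weakest group to 14 in the strongest, while peaks of all 3 lists grow from 6 to 261.

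The reproducibility values followed the signal. The global irreproducible discovery rate (IDR) estimates how large a share of the peaks down to a given rank fail to reproduce, and the lists give its −log10, capped at 5. The median was 1.53 for wico-only regions (quartiles 1.19 and 2.15) and 2.98 for shared wico peaks. A global IDR of at most 0.02 was reached by 645 wico-only regions, 41.3% of them (38.9 to 43.8%), against 65.6% of all wico peaks on the long scaffolds and 83.4% of shared ones. The cap was reached by 12 wico-only regions, or 0.769% (0.398 to 1.34%), against 9.67% of all wico peaks there. The same lists set membership, so these shares describe the members and do not test them.

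Every listed peak has a value in both replicate columns, because the lists hold only peaks that combine both replicates. In the first replicate column the wico-only signals ran from 3.43 to 14.6 with a median of 4.49, and in the second from 3.26 to 13.8 with a median of 4.16. The columns do not say which biological replicate each one is. The first column was the higher at 1033 regions, or 66.2% (63.8 to 68.5%), and at 71.3% of shared wico peaks, so the tilt was not limited to the members. The log2 ratio between them, first over second, had a median of 0.10 and an SD across peaks of 0.27 in wico-only regions. In shared peaks the median was 0.18 and the SD 0.31. By 5 percentile groups of the wico list, weakest to strongest, the wico-only medians were 0.06, 0.10, 0.18, 0.24 and 0.29. Those of shared peaks were 0.06, 0.11, 0.18, 0.19 and 0.20, and the intervals of the 2 sets overlapped in each group. The lower median of wico-only regions as a whole was thus not seen at like rank beyond these intervals. The columns were over 1.5-fold apart at 92 wico-only regions, 5.89% of them (4.78 to 7.18%), and at 10.1% of shared peaks. They were over 2-fold apart at 4 wico-only regions. With the lowest column values at 3.43 and 3.26, a weak peak cannot have columns far apart. Shared peaks are stronger, so these shares do not compare the 2 sets at like strength.

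The rank correlation of the replicate columns across the 1561 wico-only peaks was 0.60, against 0.76 across the 2131 shared wico peaks. Both are descriptions across peaks of the same 2 libraries, and the shared peaks span a wider range of signal. In the upper 50% of the list the correlation was 0.05 over 378 wico-only peaks and 0.62 over 1484 shared peaks. Both of these sets are cut on the sum of the columns, which lowers a correlation between the columns, and more so over a narrow range. The wico-only peaks reach a summed signal of 24.6 and the shared peaks 50.6. The 2 values therefore cannot compare how well strong peaks of the sets replicate.

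**Figure D2:**
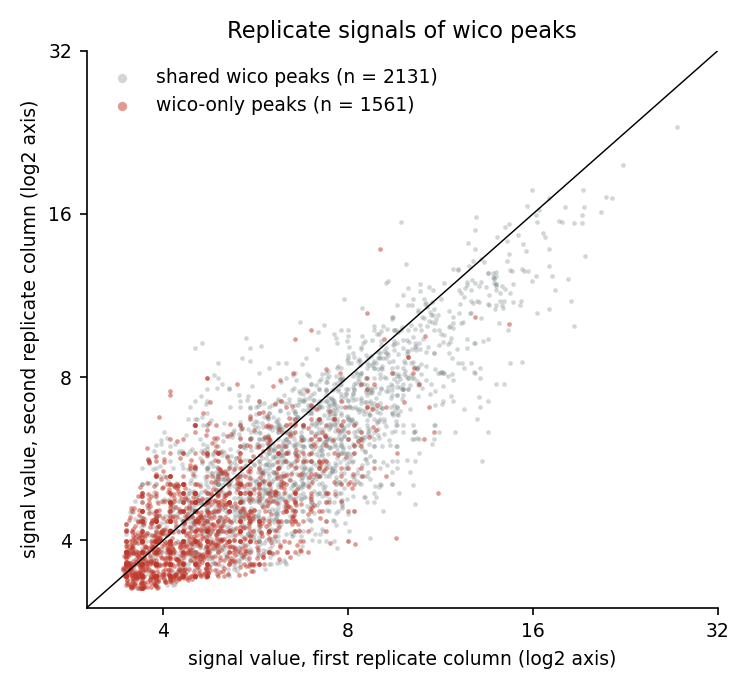
Signal value of each wico peak on the long scaffolds in the first (x axis) and second (y axis) replicate column, both on log2 axes without a stated unit, with the line of equality. The 1561 wico-only peaks fill the low end of the cloud of 2131 shared peaks and reach 14.6 in the first and 13.8 in the second column.

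The regions with the most unequal replicates stood well inside the list, which follows in part from how they were picked. Both columns have a lower limit, so a large ratio needs a high value in 1 of them. The largest excess of the first column was at 16344688 to 16345442 of HiC_scaffold_5, with signals of 9.59 and 4.04, a log2 ratio of 1.25. It was followed by 88263855 to 88264346 of HiC_scaffold_1 with 11.2 and 4.89, and by 11626452 to 11627393 of HiC_scaffold_6 with 8.22 and 3.93. Their summed signals put them at percentiles 77.4, 87.1 and 67.6 of the wico list. In the other direction, the region at 74390993 to 74391290 of HiC_scaffold_3 had signals of 4.09 and 7.55, that at 76343536 to 76343776 of HiC_scaffold_4 had 4.09 and 7.42, and that at 25473054 to 25473504 of HiC_scaffold_4 had 3.93 and 6.75. All 6 are high in a single column, so their place in the list rests on that column.

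The 10 strongest wico-only regions had summed signals from 18.3 to 24.6, and all 10 were at the cap of the IDR. The strongest lay at 51246766 to 51247505 of HiC_scaffold_5, with signals of 14.6 and 10.0 in the replicate columns and a width of 740 bp. The second, at 111978739 to 111979042 of HiC_scaffold_4, had 12.9 and 10.3 and stood close to the scaffold's end, at 99.6% of the length covered by peaks. The third, at 114549370 to 114549814 of HiC_scaffold_2, had 9.01 and 13.8, and its percentile was 88.5 by the first column and 99.0 by the second. Its nearest wild-type and star peaks were 529102 and 529136 bp away. The fourth, at 16330223 to 16330528 of HiC_scaffold_5, had 10.7 and 9.54, with wild-type and star peaks 8903 and 8914 bp away. The 3 closest to the top thus differ in setting, since a wild-type peak lay 6472 bp from the first of them and over 100 kb from the other two.

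The fifth strongest region, at 115835646 to 115835975 of HiC_scaffold_2, had replicate signals of 8.60 and 10.5 and lay on the same scaffold as the third. The sixth and seventh, at 79689491 to 79689764 and 79689944 to 79690234 of HiC_scaffold_7, carried identical signals of 10.0 and 8.72. With a gap of 179 bp and the same values in both columns, they were taken as 1 peak listed in pieces, which leaves 9 separate measurements among the 10 strongest. The nearest peak of another list was a star peak, 651888 bp from this pair. The eighth was at 82392776 to 82393189 of HiC_scaffold_4 (9.15 and 9.41), the ninth at 17185682 to 17185997 of HiC_scaffold_2 (10.2 and 8.32) and the tenth at 115574444 to 115574877 of HiC_scaffold_7 (10.2 and 8.15). Across the 10, the nearest wild-type peak was between 6472 and 741714 bp away, and 3 of them had one within 10 kb.

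Every long scaffold had a wico-only region in the upper part of the list. On the scaffolds with none of the 10 strongest, the highest signal was at 112931998 to 112932246 of HiC_scaffold_6, with a summed signal of 18.2. On HiC_scaffold_3 it was at 127698691 to 127699133 with 17.9, and on HiC_scaffold_1 at 22984119 to 22984377 with 16.6, at percentile 88.6. At the other end, the 3 weakest regions were also the 3 lowest peaks of the whole wico list, with ranks 4274 to 4276. They were at 119421007 to 119421496 of HiC_scaffold_1, 51253119 to 51253467 of HiC_scaffold_5 and 90463487 to 90464062 of HiC_scaffold_2, with summed signals of 6.82, 6.81 and 6.79. The second of these lay 5613 bp from the strongest wico-only region, so the top and the bottom of the set were neighbours on HiC_scaffold_5.

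Wico-only peaks had a lower median width than shared wico peaks in each of 5 rank groups. Over all of them the median was 350 bp (order-statistic 95% interval 341 to 358 bp), with a range of 111 to 1748 bp, against 411 bp (404 to 419 bp) for shared peaks. At percentiles 0 to 20 of the wico list the medians were 358.5 bp and 384.5 bp, with overlapping intervals (344 to 373 and 361 to 414 bp). At 20 to 40 they were 341 bp and 382 bp, at 40 to 60 they were 350.5 bp and 385 bp, and at 60 to 80 they were 363 bp and 413 bp, in each case with intervals that did not overlap. At 80 to 100 they were 328 bp (304 to 405 bp, 52 peaks) and 439 bp (430 to 453 bp, 689 peaks).

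In shared peaks the median width was higher at higher rank, whereas in wico-only peaks it was not. The rank correlation of width and summed signal was 0.19 across shared peaks and -0.02 across wico-only peaks. Width enters the rule, since a wider interval has more bases that another list can share, and its part in these differences was not tested. With a reciprocal overlap of at least 50% as the rule, the median width of wico-only peaks was 353 bp.

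**Figure D3:**
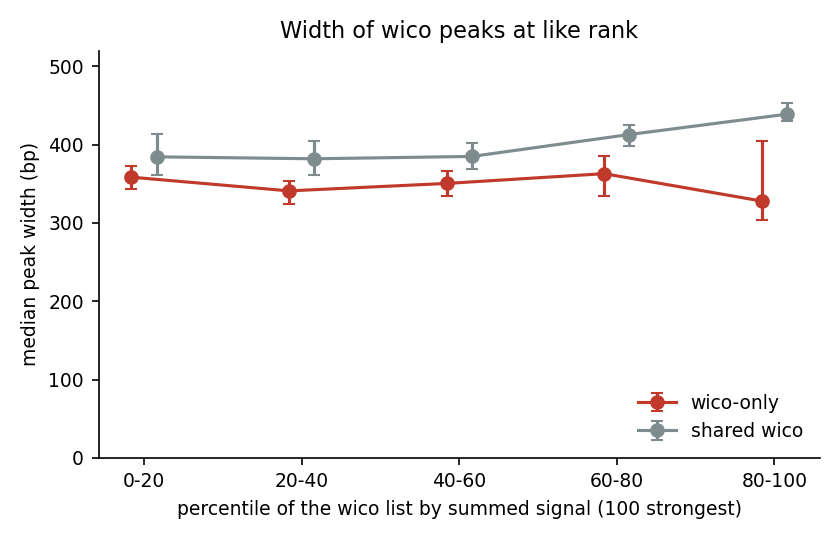
Median width in bp (y axis) of wico-only and shared wico peaks in 5 percentile groups of the wico list by summed signal (x axis, 100 strongest), with order-statistic 95% intervals as bars. The wico-only medians stay between 328 and 363 bp, while those of shared peaks rise from 384.5 to 439 bp.

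The widest wico-only regions were 1748 bp at 186790869 to 186792616 of HiC_scaffold_2, 1398 bp at 41005908 to 41007305 of HiC_scaffold_4 and 1186 bp at 174593 to 175778 of HiC_scaffold_6. Their summed signals were 7.74, 12.998 and 12.5. The narrowest were 111 bp at 1051418 to 1051528 of HiC_scaffold_7, 114 bp at 28452092 to 28452205 of HiC_scaffold_5 and 183 bp at 70321179 to 70321361 of HiC_scaffold_5, with summed signals of 12.7, 10.1 and 7.94. Each of these 3 has the same values in both replicate columns as a neighbouring wico peak, the first as a wico-only neighbour 180 bp away, and the other two as shared wico peaks 206 and 260 bp away. In all, 8 pairs of neighbouring wico-only regions under 500 bp apart had identical values in both replicate columns, with gaps of 179 to 259 bp, and they were taken as peaks listed in 2 pieces. Another 3 wico-only regions stood in the same relation to a shared wico peak, so that by this criterion they are pieces of shared peaks. Besides the narrow ones on HiC_scaffold_5, this was the region at 40923877 to 40924092 of HiC_scaffold_2, 189 bp from a wico peak shared with the wild type. Neighbours with identical values were not limited to the members, since 11 further pairs consisted of 2 shared wico peaks. Identical replicate values alone also occurred at peaks that are no neighbours, at 730 of the 3335 wico peaks below the cap of the IDR. In 0 of these was the IDR identical too, whereas it was in all 8 pairs, 1 of them at the cap, and in the 3 mixed ones. At 16 wico-only peaks the deposited summit lay outside the listed interval, as it did at 21 shared wico peaks. According to the list names input was removed, by a procedure that is not described in the sources used here.

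The wico-only regions lay on all 7 long scaffolds, and were most and least dense on the same scaffolds as the shared wico peaks. HiC_scaffold_4 held 296 of them, and HiC_scaffold_6 held the fewest, 159, or 10.2% (8.73 to 11.8%). Taking the largest peak end as the length of a scaffold, the density ran from 1.15 per Mb on HiC_scaffold_6 to 2.63 per Mb on HiC_scaffold_4. Shared wico peaks were likewise sparsest on HiC_scaffold_6 at 1.41 per Mb and densest on HiC_scaffold_4 at 3.75 per Mb. The wico-only share of wico peaks was lowest on HiC_scaffold_1, at 37.0% (33.0 to 41.0%), and highest on HiC_scaffold_5, at 45.4% (40.8 to 50.0%). The median percentile per scaffold ran from 23.3 on HiC_scaffold_3 to 32.9 on HiC_scaffold_2.

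Along the scaffolds, wico-only regions were denser toward both ends. The last 10% of the scaffold length held 20.5% of them (18.5 to 22.6%), the first 10% held 13.1% (11.4 to 14.8%), and the stretch from 40 to 50% held 5.25% (4.20 to 6.48%). Of the regions in all 3 lists, 26.0% lay in the last 10% of the length (23.1 to 29.2%) and 3.07% between 40 and 50% (2.00 to 4.50%). The share of wico regions that were wico-only was highest between 20 and 30% of the length, at 53.6% (47.2 to 59.9%), and lowest in the last 10%, at 39.0% (35.7 to 42.5%).

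The middle of the scaffolds, from 25 to 75% of their length, held 34.8% of wico-only regions (32.5 to 37.3%) and 30.9% of shared wico peaks (29.0 to 32.9%). It also held 36.9% of the wild-type-only (33.1 to 40.8%) and 39.0% of the star-only regions (35.2 to 43.0%). At like rank the shares lay closer together in the weaker groups. At percentiles 0 to 20 of the wico list they were 39.6% for wico-only and 39.6% for shared peaks, at 20 to 40 they were 33.0% and 32.7%, and at 40 to 60 they were 31.8% and 31.2%. At 60 to 80 the wico-only share was the lower (28.4% against 32.2%, with overlapping intervals) and at 80 to 100 the higher (38.5% of 52 peaks, 25.3 to 53.0%, against 27.3%, 24.0 to 30.8%). By scaffold, the wico-only share in the middle was above the shared one by 7 points or more on HiC_scaffold_2, HiC_scaffold_4, HiC_scaffold_6 and HiC_scaffold_7. It was 32.7% against 39.0% on HiC_scaffold_5, and the 2 shares were within 1 point of each other on HiC_scaffold_1 and HiC_scaffold_3.

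**Figure D4:**
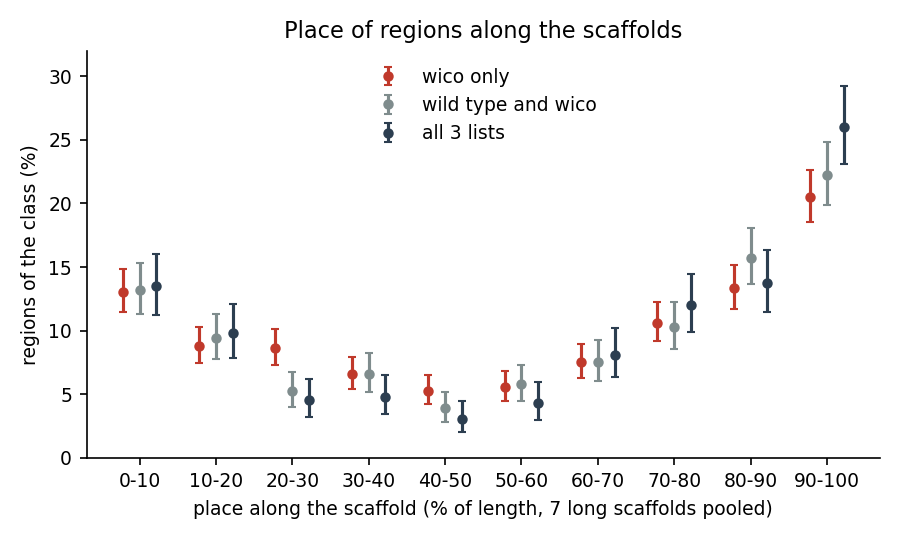
Percentage of the regions of a class (y axis) that lie in each 10% of the scaffold length, the 7 long scaffolds pooled (x axis), with exact 95% intervals as bars. Wico-only regions hold 20.5% in the last 10% and 8.65% between 20 and 30%, where regions of all 3 lists hold 26.0% and 4.55%.

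Most wico-only regions lay far from any peak of the other lists. The median distance to the nearest wild-type peak, between facing edges, was 83904 bp (76900 to 94424 bp), with quartiles of 23052 and 232043 bp. To the nearest star peak it was 131570 bp (123547 to 147444 bp), and the star list is the shorter. The wild-type peak was the nearer at 1078 regions, or 69.1%, where the long scaffolds held 2687 wild-type and 1781 star peaks. To the nearer of the 2 lists the median was 65370 bp (59390 to 71809 bp). For wild-type-only regions the median distance to the nearest wild-type or star peak of another region was 59867 bp (48026 to 68873 bp). For star-only regions it was 65673.5 bp (55182 to 78410 bp). Both values count peaks of the region's own list and leave out wico peaks, so they are not a like measure. To the nearest wico peak the medians were 65840 bp (53057 to 77965 bp) and 85162 bp (72213 to 99776 bp) in that order. To the remaining list they were 149753 bp (star) and 116686 bp (wild type). A wild-type peak lay within 1 kb of 58 wico-only regions, or 3.72% (2.83 to 4.78%), within 10 kb of 243, or 15.6% (13.8 to 17.5%), and within 100 kb of 838, or 53.7% (51.2 to 56.2%). A star peak lay within 1 kb of 31 regions, within 10 kb of 140 and within 100 kb of 664.

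Pooled over their classes, shared wico regions had other peaks nearer to them. Leaving out the peaks of the region itself, a wild-type peak lay within 10 kb of 19.98% of shared wico regions (18.3 to 21.7%) and within 100 kb of 62.6% (60.5 to 64.7%). Their peaks had a median distance of 54408 bp to the nearest such wild-type peak. The wico peaks shared with star alone went the other way, with a median of 106287 bp (70750 to 155075 bp). At like rank, a peak of either other list lay within 10 kb of 18.8% of wico-only and 19.4% of shared peaks at percentiles 0 to 20. At 60 to 80 the shares were 15.8% (10.9 to 22.0%) and 23.8% (20.4 to 27.5%), and at 80 to 100 they were 21.2% and 25.1%.

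**Figure D5:**
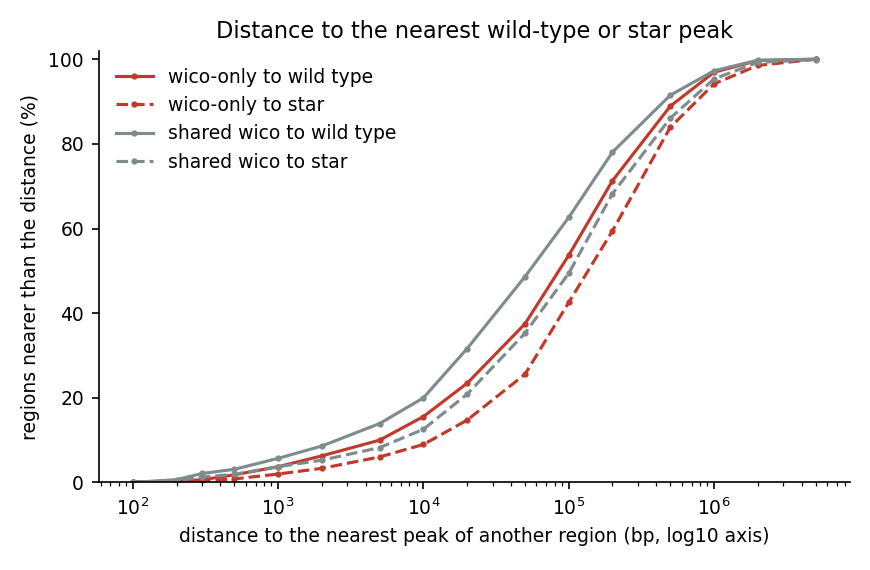
Percentage of regions (y axis) with a wild-type or star peak of another region nearer than the distance on the x axis (bp, log10 axis), for wico-only and shared wico regions. At 10 kb, 15.6% of wico-only and 19.98% of shared wico regions have a wild-type peak, and 8.97% and 12.6% have a star peak.

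The nearest peak of another list belonged to a region with a wico peak about as often as regions of the other lists do. For 932 of 1561 wico-only regions, or 59.7% (57.2 to 62.2%), it belonged to a region that also held a wico peak, and such regions were 60.6% of the 3512 regions of the other lists. Among the 69 regions with a wild-type or star peak within 1 kb, it was 42, or 60.9% (48.4 to 72.4%). In these 42 cases a wico-only peak stood beside a wico peak that was itself shared. By class and at any distance, regions of wico and star were the nearest for 7.43% (6.18 to 8.85%), against 5.92% of the regions of the other lists, and regions of all 3 lists for 20.4% (18.5 to 22.5%), against 23.2%. In 16 of the 69, or 23.2% (13.9 to 34.9%), the neighbour was a region found in the wild type alone, and in 7, or 10.1% (4.18 to 19.8%), a region found in star alone. Such regions are 17.9% and 17.7% of the regions of the other lists. In these cases the lists had separate peaks within 1 kb of each other.

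The most isolated regions all lay in the middle of HiC_scaffold_2. The region at 96217413 to 96217623 was 2501640 bp from the nearest wild-type peak and 2534285 bp from the nearest star peak, and its summed signal was 8.03. Next came 90463487 to 90464062, the weakest peak of the list, and 89829437 to 89829846 with a summed signal of 8.59. These 2 lay 633640 bp apart, and each was the nearest wico region of the other.

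Wico-only regions rarely formed groups. Between neighbours on a scaffold the median gap was 290998 bp and the largest 11632678 bp, and 101 of 1554 gaps were under 10 kb. Joined at gaps under 10 kb, 195 regions formed 94 groups, of which 87 were pairs and 7 held 3 regions, and 1366 regions stood alone. The 3 closest pairs, with gaps of 179, 180 and 180 bp, each carried identical replicate values and were taken as single peaks listed in pieces. The closest pair with separate values lay 203 bp apart, at 68586660 to 68587240 and 68587444 to 68587851 of HiC_scaffold_4, with summed signals of 8.76 and 8.79. Another wico-only region, at 68585905 to 68586291 with 9.25, made this the tightest group of 3, within 1947 bp.

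Groups of 3 occurred with and without a shared region between their members. On HiC_scaffold_5, the fourth strongest region at 16330223 to 16330528, a weak one at 16338584 to 16338919 (7.46) and the region with the most unequal replicates at 16344688 to 16345442 (13.6) spanned 15220 bp. Between the weak one and the last lay a region of all 3 lists, where the wico peak at 16339368 to 16339875 had a summed signal of 23.5. On HiC_scaffold_3, by contrast, the regions at 105104708 to 105105098, 105108334 to 105108728 and 105111420 to 105111844 spanned 7137 bp with no wild-type or star peak among them or within 10 kb. Their summed signals were 13.8, 8.97 and 11.5, and their replicate signals were 6.04 and 7.72, 4.95 and 4.02, and 5.48 and 5.998. A second such group on that scaffold, from 7934509 to 7940643, had summed signals of 10.5, 8.77 and 9.64.

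At the scale of 1 Mb, 668 of 1016 windows held at least 1 wico-only region, 348 held none and 78 held 5 or more. The densest window, from 109 to 110 Mb of HiC_scaffold_4, held 12, with summed signals from 7.12 to 12.1, among 23 wico regions in all. Windows with 10 each followed at 132 to 133 Mb of HiC_scaffold_3, at 100 to 101, 106 to 107 and 108 to 109 Mb of HiC_scaffold_4, and at 1 to 2 Mb of HiC_scaffold_5. Each of these 6 windows also held between 20 and 30 wico regions, and between 11 and 23 regions with a wild-type peak. In 63 windows wico-only regions were present without any wild-type or star region, with at most 3 in a window.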

How the data were processed

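The members, the comparisons and most alternatives were chosen with earlier results of these data known. The authors deposited 1 peak list per genotype, with 21 columns and no header, and lists were assigned through the library numbers in their names. The submitters' processing notes name FastQC, MultiQC, Bowtie2 2.4.2, MACS2 and bedtools without giving roles; the genome build is not given in the sources used here. The layout is that of the idr program. The signal value deposited by the authors is the sum of the 2 replicate columns in every row. The −log10 of the global IDR, deposited by the authors, shows that lists end at an IDR of 0.1. In each list, 7 further columns, of single-replicate positions, were not used.

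Peaks were merged, and distances taken between edges, with pandas 2.3.3 and numpy 2.4.6 in Python 3.11.15, and intervals were computed with scipy 1.17.1. The code was tested on simulated data (3000 of 3000 regions recovered with their class), and bedtools 2.31.1 differed on 0 wico peaks. Percentiles are over the whole wico list. Positions are counted from 1. Intervals are exact Clopper-Pearson (shares) or from order statistics (medians) at 95%, cover counting error only, and treat peaks as independent, which they are not. No test was made. Named regions follow a rule on rank, width, replicate ratio, distance and spacing; groups of 3 and the middle of the scaffolds were chosen after seeing the data. No sequences, genes or CArG boxes were analysed here, because no genome was used.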

Additional observations from a re-analysis of the deposited data

How the results depend on the processing

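The number of wico-only regions changed more with cuts to the lists than with the definition of overlap, but their share of wico peaks did not do so throughout. From 1561, it became 645 with a global IDR of at most 0.02 in the wico list alone, 828 with the wico list at the length of the wild-type list, 703 in the upper 50% of each list and 499 with all lists at the length of the shortest. As a share of wico peaks (42.3%), these were 26.6%, 30.1%, 37.8% and 25.7%. Fewer wico peaks enter these settings by construction. The share was 48.6% with centres at most 100 bp apart and 44.7% with reciprocal overlap of at least 50%. With a global IDR of at most 0.02 in all lists, 1053 regions were wico-only, of which 645 were members as defined here, because the other lists also lost peaks, and the share was 43.5%. All scaffolds gave 1842 regions, a gap of at most 500 bp gave 1508 and joined pieces gave 1550. The 10 strongest regions were wico-only in each of the 10 alternatives, which was largely fixed in advance. Stricter overlap rules and shorter lists do not remove strong members. Each of the 10 lay at least 6472 bp from a wild-type or star peak, out of reach of a gap of 500 bp. The median percentile was 31.0 by the second replicate column, the replicate correlation was 0.64 as Pearson's on log2 values, and 30.5% of regions lay in the middle of the scaffolds at a global IDR of at most 0.02 in the wico list, below the 34.8% of the whole set. The cause of these shifts was not tested. Of 42 recomputed values, 29 stayed within the interval or within 1.5 times the count.

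The joined pieces, the wico list at wild-type length, percentiles within the long scaffolds and the other overlap rules for the replicate columns were chosen after seeing the data. No paired analysis was possible because wico-only regions have no values in the other lists and the replicate columns carry no library name. Membership could not be recomputed without a replicate, since each listed peak combines both. Depth is unknown, so absence from a list cannot be read as absence of binding.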
